A study of Mus musculus with 10 samples.

Results

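The ordered trend over 3 Mkx genotypes was followed in mouse Achilles tendon, with each library scored by genotype: 0 for Mkx-flox/+, 1 for Mkx-CreER/+ and 2 for Mkx-CreER/flox. All 10 libraries of the series entered it, 4 with score 0, 3 with score 1 and 3 with score 2, and no pair of genotypes was compared on its own. The Mkx-CreER/flox mice carried a tamoxifen-inducible Cre at the Mkx locus beside a floxed Mkx allele, the Mkx-CreER/+ mice the inducible Cre allele with no floxed allele named, and the Mkx-flox/+ mice a floxed allele without Cre. Mice of every genotype received tamoxifen at 20 mg/kg at 6 weeks of age, and the tendon was taken 4 weeks later. Total RNA was made into libraries by RamDA-seq, which primes along whole transcripts rather than at the poly(A) tail alone. Cre activity is limited to cells in which the Mkx-CreER allele is active. Which exons are removed is not given in the labels, nor is it said if the CreER insertion disrupts Mkx. The labels write the floxed control both as Mkx-flox/+ and as Mkx-flox, so its number of floxed copies is not settled. The CreER allele is present at scores 1 and 2 only and the floxed allele at scores 0 and 2, so a step of the score cannot be told apart from the alleles that change with it. Nothing in the labels says more of how the libraries of a genotype were drawn than that they are replicates, and the p-values measure the spread between them.

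Mkx, the Mohawk homeobox gene, encodes a transcription factor of tendon and ligament cells that is known for sustaining type I collagen and small proteoglycan genes. Tendon cells secrete procollagen that is folded, hydroxylated and trimmed before it assembles into fibrils, and small leucine-rich proteoglycans such as fibromodulin and keratocan bind the fibrils and shape their thickness. An Achilles tendon sample can also hold sheath tissue, vessels, nerve, macrophages, fat and the end of the calf muscle. In such a bulk sample, fewer cells of a type and less RNA per cell cannot be told apart.

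The promoters of 4 genes that carry the trend are shown because their transcripts followed the score, 3 downward and 1 upward. Each line gives the 150 bases before the RefSeq start on build GRCm38.p6, with capitals on CCAAT boxes of either strand (ATTGG on the printed strand is a CCAAT on the other). Col1a2 lies at chr6:4505468-4505617 on the plus strand, Fmod at chr1:134037104-134037253 on the plus strand, Kera at chr10:97607055-97607204 on the plus strand and Extl1 at chr4:134372548-134372697 on the minus strand.
Col1a2: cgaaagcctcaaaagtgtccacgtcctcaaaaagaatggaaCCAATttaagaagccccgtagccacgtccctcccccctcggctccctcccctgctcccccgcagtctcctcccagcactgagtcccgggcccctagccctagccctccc
Fmod: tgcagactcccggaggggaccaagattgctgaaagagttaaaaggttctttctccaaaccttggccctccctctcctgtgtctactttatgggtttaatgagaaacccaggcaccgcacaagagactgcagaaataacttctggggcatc
Kera: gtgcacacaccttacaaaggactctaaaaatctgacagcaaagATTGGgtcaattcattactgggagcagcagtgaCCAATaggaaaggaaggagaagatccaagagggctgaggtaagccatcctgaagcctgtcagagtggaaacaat
Extl1: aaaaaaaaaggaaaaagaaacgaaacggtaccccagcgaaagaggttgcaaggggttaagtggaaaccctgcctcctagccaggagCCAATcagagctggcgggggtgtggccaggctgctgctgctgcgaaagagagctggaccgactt
The TATA motif TATAAA, the CCAAT box and the E-box CAGCTG were searched on both strands in the 250 bases before each start, each on its own, so that matches of different motifs may overlap. In the printed bases, Col1a2 held a CCAAT starting 109 bases before the start, Kera held one at 107 and another at 74, Extl1 held one at 64, and Fmod held none of the 3. Among the 474 promoters of 364 genes that fell, 30.2% held a CCAAT box, 9.49% a TATA motif and 13.5% the E-box. The 821 promoters of 602 genes that rose held them in 32.4%, 10.4% and 15.5%, and all 15108 promoters of tested genes in 34.5%, 7.21% and 12.9%. Over all 32851 RefSeq promoters the shares were 33.8%, 12.4% and 13%. These shares are a description of letters in a window, and they were not tested.

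The libraries held 8680934 to 22656417 counts in genes, at which 3 counts correspond to 0.126 to 0.36 CPM (counts scaled to library size), a limit that holds for counting error alone. Within genotypes, the chi-square of paired libraries ran from 23.6 to 119 per degree of freedom, so no pair was taken for a repeat deposit of the same library. All 4 Y-linked genes that were measured were above 0 in all 10 libraries. Skeletal muscle transcripts took 3.83% ± 2.06 of counts (SD, n = 4) at score 0, 6.55% ± 2.67 (n = 3) at score 1 and 10.6% ± 2.75 (n = 3) at score 2. This share rose by 3.33 percentage points per step (SE 0.882, two-sided exact permutation p = 0.00548, adjusted over 3 such tests 0.00548). Mitochondrially encoded transcripts took 2.07% ± 0.174, 3.42% ± 1.25 and 6.04% ± 2.53 in the same order, a rise of 1.96 points per step (SE 0.552, two-sided exact permutation p = 0.00143, adjusted 0.00214). Mkx-CreER/flox library 1 stood apart with the highest share of both, 13.6% and 8.85%. Library numbers are those of the deposited columns. For Mkx-CreER/+ (1, 2 and 4) and Mkx-CreER/flox (1, 4 and 5) they are not the replicate numbers that the labels give.

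**Figure D1:**
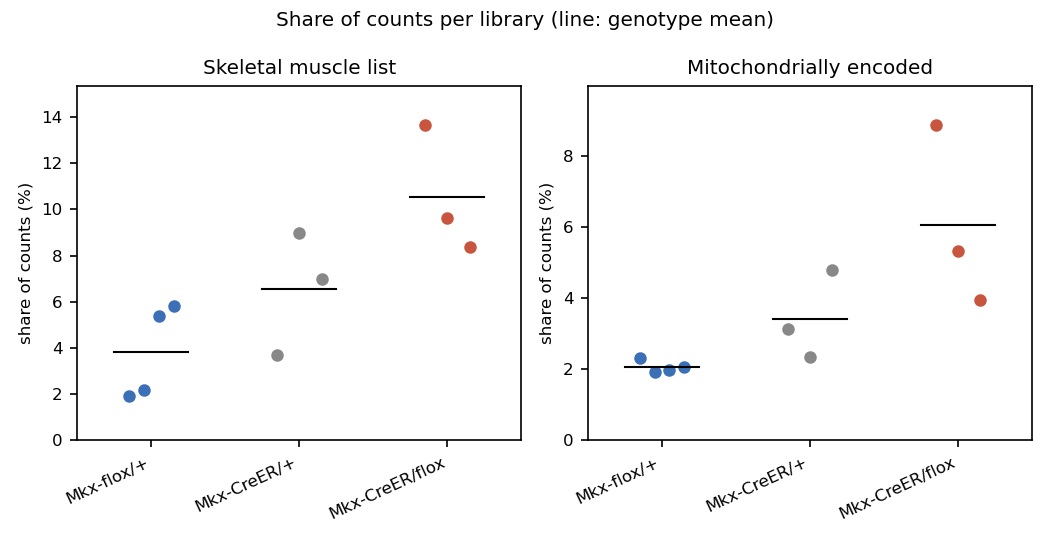
Share of counts (percent, vertical axes) taken by skeletal muscle genes and by mitochondrially encoded genes in each library, grouped by genotype on the horizontal axis. Points are libraries and lines are genotype means; both shares are highest in Mkx-CreER/flox library 1, at 13.6% and 8.85%.

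Mkx itself (ENSMUSG00000061013), the targeted gene, stepped down at each score. Its levels were 187, 177, 121 and 153 CPM in the Mkx-flox/+ libraries, 91.4, 93.8 and 93.5 CPM in the Mkx-CreER/+ libraries, and 26.1, 32.4 and 30.5 CPM in the Mkx-CreER/flox libraries. No library of one genotype overlapped those of another, and the transcript was still detected at score 2. Mkx fell by 1.19 on the log2 scale per step (SE 0.112, edgeR quasi-likelihood test, Benjamini-Hochberg adjusted p = 0.000135). A two-sided exact permutation of the scores gave p = 0.000238, the smallest that the 4200 assignments can give (adjusted 0.000714). The Mkx-CreER/+ libraries lay 0.43 on the log2 scale above the midpoint of the other genotypes, at an unadjusted edgeR p of 0.0137 that did not pass adjustment (adjusted p = 1).

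Across the transcriptome, 1257 of 16017 tested genes (7.85%) passed the trend test (adjusted p under 0.05): 789 rose (4.93% of tested genes) and 468 fell (2.92%). At an unadjusted p under 0.05 there were 3772. A change of at least 0.5 on the log2 scale per step was seen in 825 of the called genes, 571 risen and 254 fallen. The median slope of all tested genes was 0.01. The rises were the larger changes: their median slope was 0.67 per step, against -0.51 among the falls.

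A linear trend call by itself shows neither order nor evenly spaced steps, because the slope rests mainly on the libraries at scores 0 and 2. The place of the middle genotype was therefore read separately. The genotype means were in order in 1247 of the 1257 called genes, 786 risen and 461 fallen, while 28.1% of all tested genes had means in rising order and 25.9% in falling order. Scaled from 0 at Mkx-flox/+ to 1 at Mkx-CreER/flox, the Mkx-CreER/+ level sat at a median of 0.40 among risen genes and 0.48 among fallen genes. It lay between 0.25 and 0.75 in 650 risen genes (82.4%) and 357 fallen genes (76.3%), against 32.2% of all tested genes. A linear score itself favours genes whose middle genotype is near 0.5, so this closeness is in part set by the test. In 2 risen and 7 fallen genes the middle genotype passed beyond the Mkx-CreER/flox level, and in 1 risen gene it lay on the far side of the Mkx-flox/+ level.

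**Figure D2:**
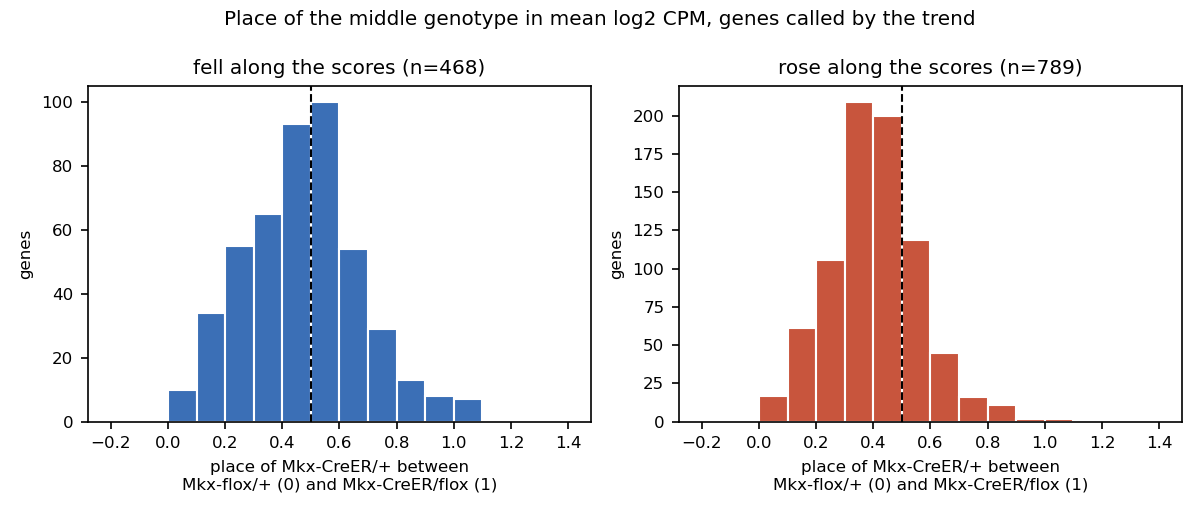
Number of genes (vertical axes) by the place of the Mkx-CreER/+ mean on a scale from 0 (Mkx-flox/+) to 1 (Mkx-CreER/flox), for the 468 genes that fell (left) and the 789 that rose (right), with a dashed line at the midpoint. The median place was 0.40 among risen and 0.48 among fallen genes.

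A test of departure from the straight line called 0 of 16017 genes (a percentage of 0). At an unadjusted edgeR p under 0.05 there were 377 genes, 256 with the middle genotype above the line and 121 below it. Neither DESeq2 (433 at an unadjusted p under 0.05) nor limma voom (1202) called any after adjustment. Chance alone gives a share of 0.05 of tested genes at this cutoff. The edgeR and DESeq2 counts were below that share and the voom count above it, and none was read as a result. Among the trend's called genes, 31 had an unadjusted departure p under 0.05. The absence of calls does not show that the steps were even: a single gene's middle level rests on 3 libraries.

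In the strictest reading of order, 131 genes (0.818% of tested genes) had every Mkx-CreER/+ library between all Mkx-flox/+ and all Mkx-CreER/flox libraries. Upward order was seen in 52 (0.325%) and downward order in 79 (0.493%). Of these, 47 were called risen and 72 called fallen, which is 5.96% of all risen and 15.4% of all fallen genes. Falls held this full order at the larger share, a difference that was not tested.

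Fibrillar and associated collagen genes fell along the trend or did not pass the test. Of 15 tested, 8 fell and 0 rose, with a median slope of -0.45 per step against 0.01 over all tested genes. Col1a1 (chr11:94936224-94953042, plus strand, mm10), which encodes the main chain of type I collagen, had 25150, 23593, 10605 and 37755 CPM at score 0, 8689, 6706 and 7633 CPM at score 1, and 3058, 4299 and 4902 CPM at score 2. The genotypes did not overlap, although the Mkx-flox/+ libraries spread widely among themselves. It fell by 1.30 per step (SE 0.185, edgeR adjusted p = 0.0016). Col1a2, its partner chain (chr6:4504814-4541544, plus strand, mm10), had 48521, 38925, 23677 and 62526 CPM, then 22585, 15139 and 15163 CPM, then 12067, 8644 and 9148 CPM. It too was in full order and fell by 1.07 per step (SE 0.170, edgeR adjusted p = 0.00276).

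The other chains divided. Col16a1, a fibril-associated collagen, fell by 0.86 per step with every library in order, from 54.7 to 81.6 CPM at score 0 to 15.7 to 28.5 CPM at score 2. Col11a2, a chain of type XI collagen, fell by 1.27. Among chains chosen here after their values were seen, Col6a1 fell by 0.58 and Col12a1 by 0.51 per step. Type III and type V chains, which share fibrils with type I collagen, did not pass: the slope was -0.11 for Col3a1 (edgeR adjusted p = 0.705), -0.13 for Col5a1 (0.584) and -0.09 for Col5a2 (0.739). Col3a1 levels overlapped across all genotypes, at 2163 to 5250, 1993 to 3625 and 2759 to 3359 CPM.

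Of 30 tested genes that fold, trim and crosslink collagen, 16 fell and 1 rose, with a median slope of -0.42. Adamts2, which removes the amino-terminal propeptide of procollagen, had 1109, 923, 706 and 1027 CPM, then 624, 451 and 377 CPM, then 267, 301 and 343 CPM. It was in full order and fell by 0.82 per step (SE 0.111, edgeR adjusted p = 0.00148). Pcolce, which enhances cleavage at the other end, fell by 0.88. Crtap, a subunit of the prolyl 3-hydroxylation complex, fell by 0.61 with every library in order. Sparc, a collagen-binding chaperone, fell by 0.99 in full order.

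Among further members chosen after their values were seen, the crosslinking enzymes Loxl2 and Loxl4 fell by 0.79 and 0.65, and P4ha1, a catalytic subunit of collagen prolyl 4-hydroxylase, fell by 0.76. Creb3l1, a transcription factor that acts on the secretory pathway of collagen-producing cells, fell by 0.74. The exception in direction was Tmem38b, an endoplasmic reticulum cation channel, which rose by 0.53 (edgeR adjusted p = 0.0513 without Mkx-CreER/flox library 1). Serpinh1, the collagen chaperone HSP47, and Lox, the founding lysyl oxidase, had slopes of -0.35 (edgeR adjusted p = 0.0956) and -0.48 (0.0623) and were not called.

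Proteoglycans and other tendon matrix genes fell in 13 of 36 cases and rose in 2, with a median slope of -0.33. Matn2, a matrilin that bridges matrix filaments (chr15:34306677-34436273, plus strand, mm10), had 467, 416, 347 and 484 CPM, then 261, 244 and 200 CPM, then 105, 131 and 138 CPM. It was in full order and fell by 0.89 per step (SE 0.091, edgeR adjusted p = 0.000276). Tgfbi, an adhesion protein of the matrix that TGF-beta induces, fell by 0.74, and Tnc, tenascin C, by 0.63. Of members chosen after their values were seen, Coch, cochlin, fell by 0.98, Mfap4, a microfibril-associated protein, by 0.67, Prg4, lubricin, by 0.66 and Bgn, biglycan, by 0.46. The call of Mfap4 was lost without Mkx-CreER/flox library 1 (edgeR adjusted p = 0.058), and those of Coch, Prg4 and Bgn were each lost when any of several libraries was left out (adjusted p up to 0.127, 0.115 and 0.0992). Outside the list, Aebp1, a collagen-binding secreted protein, had 419, 433, 461 and 421 CPM, then 236, 312 and 173 CPM, then 102, 134 and 157 CPM. No genotypes overlapped, and it fell by 0.86 per step (SE 0.105, edgeR adjusted p = 0.00133).

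Fmod and Kera encode fibromodulin and keratocan, the proteoglycans whose promoters are printed above. Fmod had 9420, 11573, 9178 and 11136 CPM, then 5070, 6601 and 4173 CPM, then 2853, 1735 and 3271 CPM, in full order, and fell by 0.99 per step (SE 0.138, edgeR adjusted p = 0.0016). Kera had 471, 337, 618 and 643 CPM, then 371, 393 and 239 CPM, then 75.4, 105 and 129 CPM. Its score 1 libraries overlapped those of score 0 but lay above every score 2 library, and it fell by 1.14 per step (SE 0.163, edgeR adjusted p = 0.00179). The 2 matrix genes that rose were Aspn, asporin, and Postn, periostin, a matricellular protein. Aspn had 113, 91.2, 139 and 110 CPM, then 189, 142 and 171 CPM, then 470, 223 and 203 CPM, and rose by 0.69 per step in full order (SE 0.126, edgeR adjusted p = 0.00608). Postn rose by 0.90, from 39.5 to 147 CPM at score 0 to 227 to 365 CPM at score 2. Its adjusted p was 0.0622 without Mkx-CreER/flox library 1. Both genes were picked out after their values were seen, and neither was called when muscle content was a covariate (adjusted p 0.368 for Aspn and 0.27 for Postn).

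Tendon transcription factors and markers fell in 11 of 24 cases, Mkx included, and rose in 1, at a median slope of -0.49. Wif1, a secreted Wnt inhibitor, had 310, 204, 242 and 353 CPM, then 180, 218 and 133 CPM, then 112, 86.8 and 84.2 CPM, and fell by 0.77 per step (SE 0.112, edgeR adjusted p = 0.00179). Fmod and Kera also belong to this list. The member that rose was Col22a1, a collagen of tissue junctions, at 0.83. Its call was lost without any 1 library other than Mkx-flox/+ library 4 and Mkx-CreER/+ library 4 (edgeR adjusted p up to 0.159). Outside the list, Thy1, a surface glycoprotein of fibroblasts, fell by 0.92 in full order, from 119 to 201 CPM to 40.4 to 50.4 CPM. The markers Scx, scleraxis, and Tnmd, tenomodulin, did not pass, with slopes of -0.57 (edgeR adjusted p = 0.0885) and -0.53 (0.0623). Comp, cartilage oligomeric matrix protein, had a slope of -0.05 (0.905). Scx, Tnmd, Comp and Col22a1 were picked out after their values were seen.

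Enzymes that degrade matrix, and their inhibitors, fell in 6 of 24 cases and rose in 0, at a median slope of -0.20. Mmp23 fell by 0.92, Ctsk, cathepsin K, by 0.67, Timp2, an inhibitor of metalloproteinases, by 0.63, and Mmp2, gelatinase A, by 0.43. The call of Mmp2 was lost without Mkx-flox/+ library 4, Mkx-CreER/flox library 1 or Mkx-CreER/flox library 4 (edgeR adjusted p up to 0.0714). Mmp23 and Timp2 were in full order. Over the 5 tendon and matrix lists together, 48 of 119 tested genes fell (40.3%) and 4 rose, beside 2.92% and 4.93% of all tested genes. These counts were sensitive to single libraries: without Mkx-CreER/flox library 4, 6 tendon markers and 8 proteoglycan and matrix genes fell, 7 tendon markers fell without Mkx-flox/+ library 1 and 7 without Mkx-flox/+ library 2, and 3 degrading enzymes fell without Mkx-flox/+ library 4 and 3 without Mkx-CreER/flox library 4. Tendon marker transcripts summed to 79966 to 97991 CPM at score 0, 56724 to 75520 CPM at score 1 and 34672 to 51753 CPM at score 2.

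**Figure D3:**
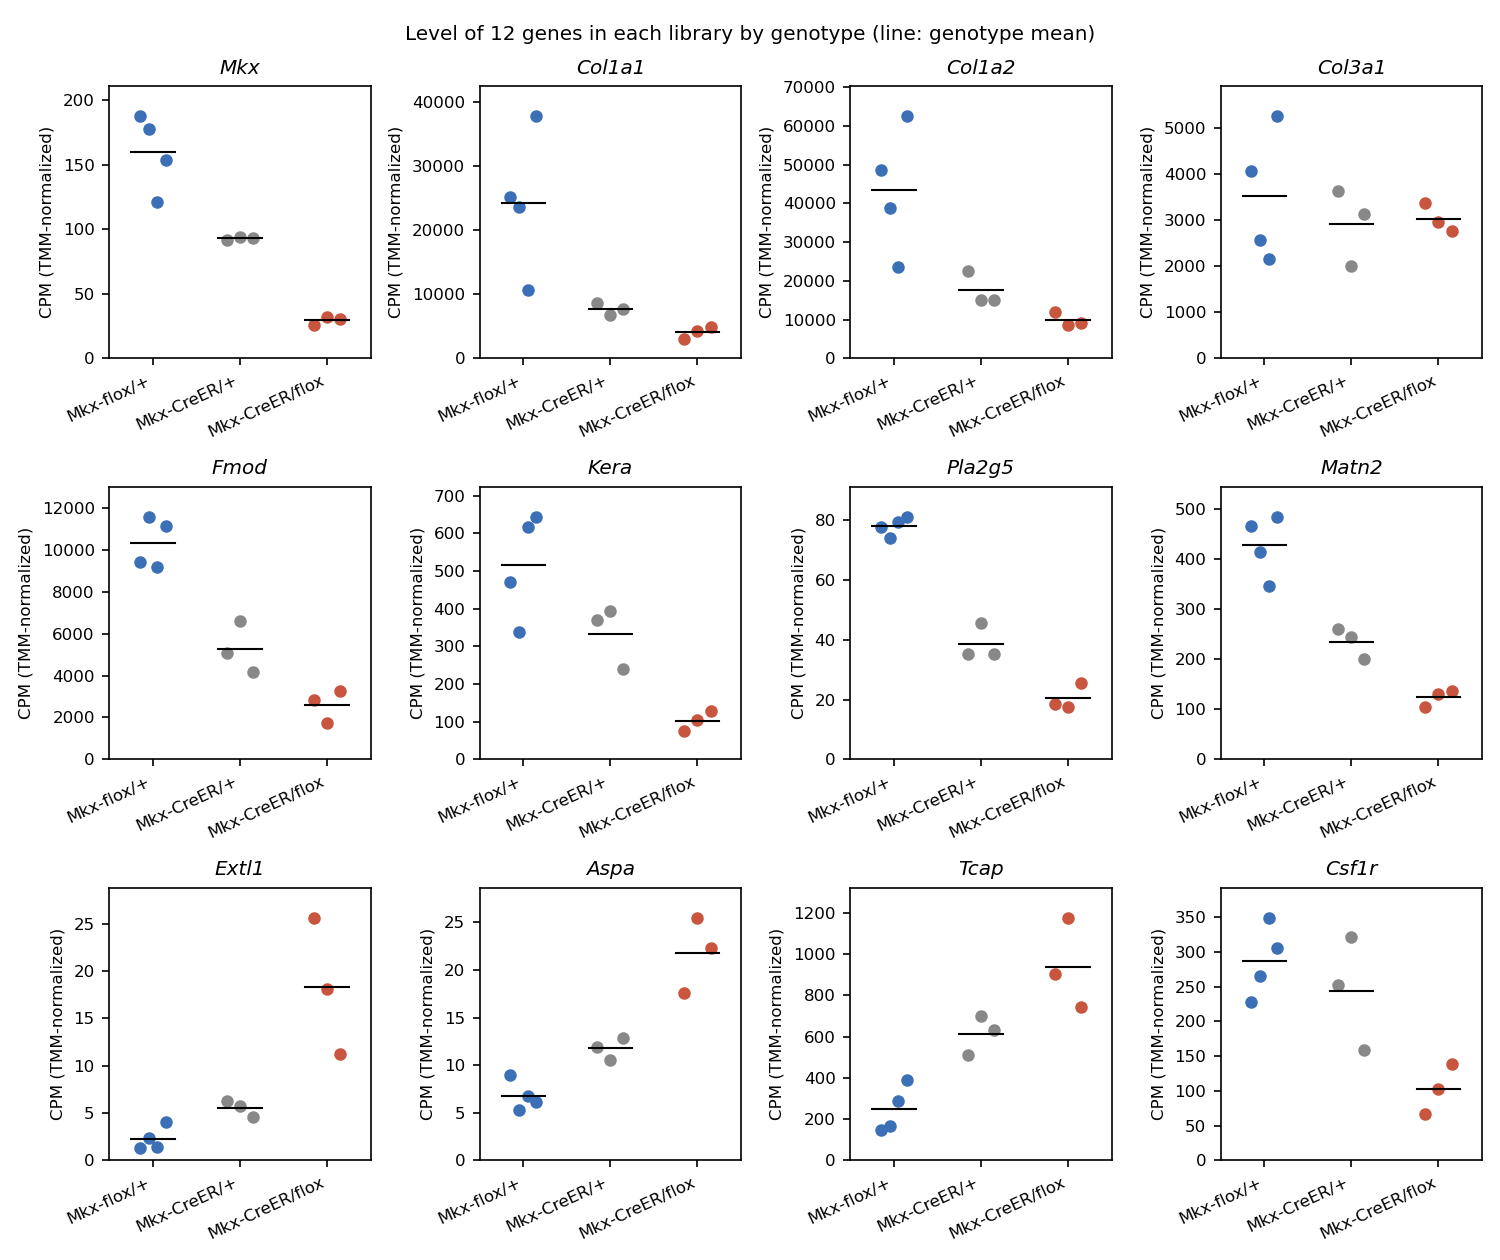
Level in each library (TMM-normalized CPM, linear vertical axes from 0) of 12 genes, with libraries grouped by genotype on the horizontal axes. Points are single libraries and lines are genotype means; Mkx descends from 121 to 187 CPM to 26.1 to 32.4 CPM.

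Signalling lists had median slopes near 0, and over all tested genes 4.93% rose and 2.92% fell. In Wnt signalling 1 of 26 genes rose and 3 fell, at a median slope of -0.08. That is 15.4% called, against 7.85% of all tested genes. Frzb, a secreted frizzled-related Wnt antagonist, had 49.2, 38.3, 21.9 and 23.9 CPM, then 37.6, 25 and 67.9 CPM, then 85.1, 95.1 and 102 CPM. The score 2 libraries lay above all others, and it rose by 0.74 per step (SE 0.161, edgeR adjusted p = 0.0146); without Mkx-CreER/flox library 1 its adjusted p was 0.0626. Besides Wif1, which is on this list too, the members Dkk3 and Dkk2 fell by 0.47 and 0.52. In TGF-beta and BMP signalling 1 of 32 rose and 2 fell, at -0.04.

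Bmp5, a ligand, rose by 0.58, but 46.7% of its exonic length lies opposite a gene on the other strand, and whether counting used strand is not stated in the labels. Ltbp1, which holds latent TGF-beta in the matrix, and Bmpr1b, a BMP receptor, fell by 0.43 and 0.34. The calls of Bmp5, Ltbp1, Bmpr1b and Dkk2 were each lost when any of several libraries was left out. Cartilage and bone genes fell in 1 of 17 cases (Cnmd), endoplasmic reticulum stress and secretion genes in 2 of 24 (Ssr4 and Sec61a1), immediate-early genes in 1 of 21 (Klf4) and inflammatory mediators in 1 of 18 (C3), and none of these lists had a rise. The calls of Ssr4, Sec61a1, Klf4 and C3 were each lost when any of several libraries was left out. Cell cycle genes (23 tested) and interferon-response genes (21 tested) had 0 calls. Over all tested genes 4.93% rose and 2.92% fell, and counts of 1 or 2 genes were not read as results about a list.

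Of 32 skeletal muscle genes tested, 12 rose with the score and 0 fell, beside 4.93% risen and 2.92% fallen over all tested genes. The median slope of the list was 0.66. Tcap, which caps titin in the sarcomere, had 147, 169, 288 and 389 CPM, then 512, 701 and 633 CPM, then 902, 1174 and 742 CPM, in full order, and rose by 0.98 per step (SE 0.161, edgeR adjusted p = 0.00352). Mb, myoglobin, rose by 1.26, with 31.9% of its exonic length opposite another gene. The fast myosin gene Myh4 ranged from 94.5 to 9427 CPM within score 0 and from 12.1 to 11527 CPM within score 1, and its slope was -0.45 (SE 1.12, edgeR adjusted p = 0.861). The count of risen muscle genes was 3 without Mkx-CreER/flox library 1, 6 without Mkx-flox/+ library 1, 6 without Mkx-flox/+ library 2 and 7 without Mkx-CreER/flox library 4.

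Within muscle, genes of slow fibres had the higher slopes. The median slope was 1.21 over 6 slow-fibre genes (1.10 to 1.50 each; 2 rose) and 0.19 over 10 fast-fibre genes (-0.45 to 1.05; 1 rose). Both sets were put together after their values had been seen, and the difference was not tested.

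Some genes of energy metabolism rose, as did the muscle share of counts. Beside 4.93% risen and 2.92% fallen over all tested genes, 20 of 42 nuclear-encoded genes of oxidative phosphorylation rose and 0 fell. Their median slope was 0.47. Cox7a1, the muscle form of a cytochrome c oxidase subunit, had 29.6, 32.3, 40.1 and 60.7 CPM, then 69.3, 79.4 and 66.5 CPM, then 210, 106 and 71.8 CPM, and rose by 0.83 per step (SE 0.154, edgeR adjusted p = 0.00748). Cycs, cytochrome c, rose by 0.68. Of 9 mitochondrially encoded genes 8 rose, at a median of 0.78. For mt-Co1, a catalytic subunit of cytochrome c oxidase, the values were 6673, 6332, 5458 and 7164 CPM, then 8534, 7680 and 15468 CPM, then 35139, 16340 and 12393 CPM, and the slope was 0.86. The highest value of both genes was in Mkx-CreER/flox library 1.

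In glycolysis 4 of 23 gene models rose and 0 fell, beside 4.93% risen and 2.92% fallen over all tested genes. The risen genes were led by Hk2, hexokinase 2, at 0.96 (SE 0.131, edgeR adjusted p = 0.0016) and Ldhb, a lactate dehydrogenase subunit, at 1.02. Without Mkx-CreER/flox library 1 the counts were 3 of 42 oxidative phosphorylation genes, 4 of 9 mitochondrially encoded genes and 2 glycolysis genes. Leaving out Mkx-flox/+ library 1, 2 or 3, or Mkx-CreER/+ library 4, gave 6, 7, 8 and 11 oxidative phosphorylation genes, and leaving out Mkx-CreER/flox library 5 gave 31. Mitochondrially encoded genes were 5 without Mkx-flox/+ library 2 and 5 without Mkx-flox/+ library 3, and glycolysis genes were 2 without Mkx-flox/+ library 1 and 2 without Mkx-CreER/flox library 4.

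**Figure D4:**
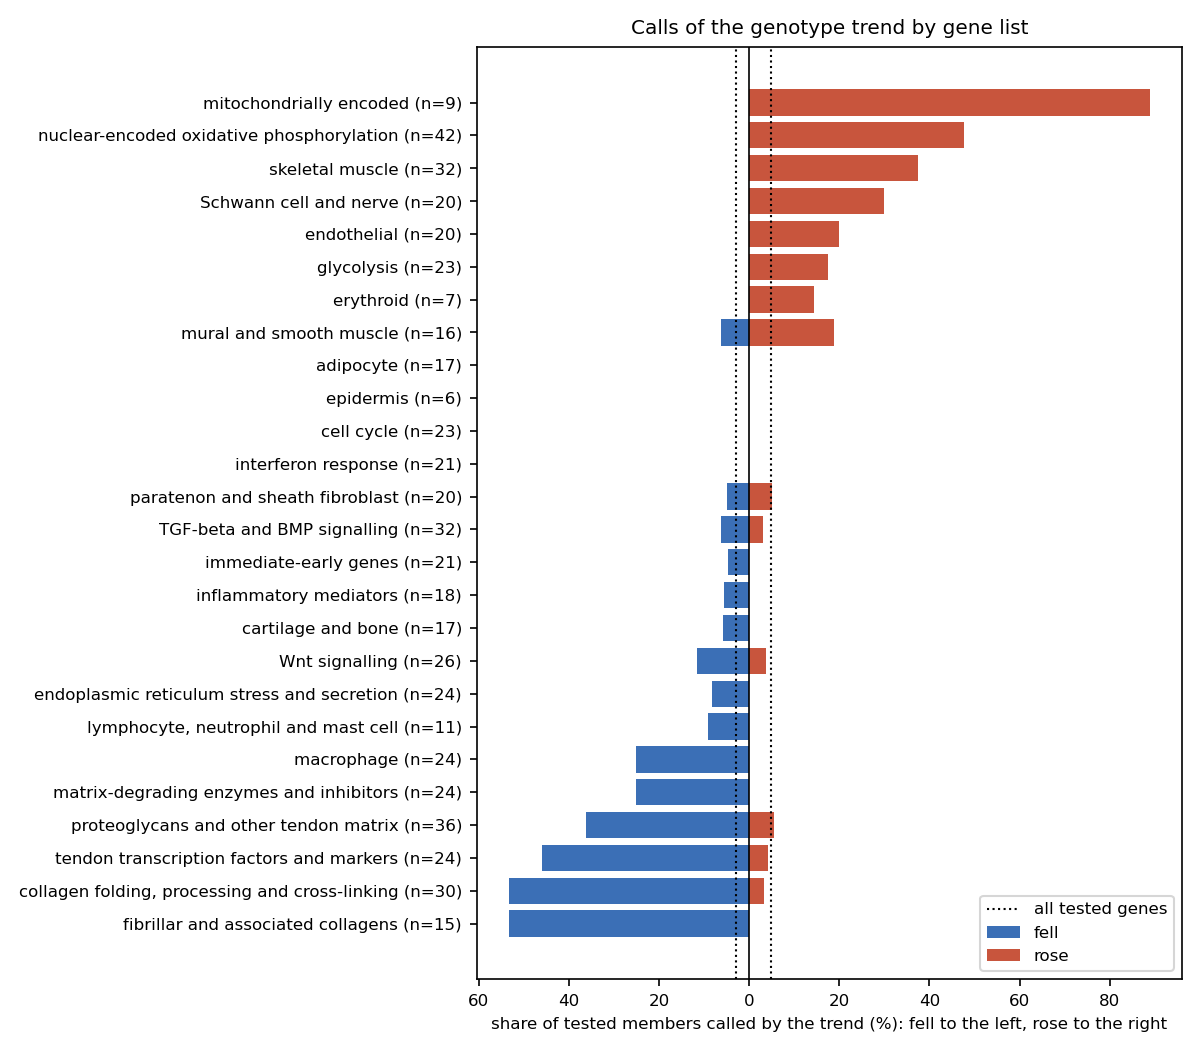
Share of each list's tested members called by the trend (percent, horizontal axis), fallen to the left and risen to the right, 1 bar per list with its number of tested members. Dotted lines mark 2.92% fallen and 4.93% risen over all tested genes; tendon and matrix lists extend to the left, and mitochondrial, oxidative phosphorylation and muscle lists to the right.

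To read the trend beside muscle content, the model was refitted with a muscle score, the mean log2 CPM of the skeletal muscle list, as a covariate. The score averaged 8.39 ± 0.83 (SD, n = 4), 9.12 ± 0.57 (n = 3) and 9.89 ± 0.60 (n = 3) from score 0 to 2, so it shares variation with the genotype score. In that fit 41 genes were called (0.256%), 6 risen (0.0375%) and 35 fallen (0.219%). The plain trend had called 37 of them, 34 fallen and 3 risen (Frzb, Aspa and Ankrd1). All 1257 genes of the plain trend kept their sign. The median slope of the risen genes was 0.67 without and 0.41 with the covariate, and that of the fallen genes was -0.51 in both. Single genes moved in either direction between the fits, and 34 of the 468 fallen genes kept their call.

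By list, the covariate moved the median slopes unequally. The median slope went from -0.45 to -0.44 for collagens, from -0.42 to -0.43 for collagen folding and crosslinking, from -0.33 to -0.35 for proteoglycans and from -0.49 to -0.41 for tendon markers, and each of these 4 lists kept 4 fallen calls. Degrading enzymes went from -0.20 to -0.32 and kept 2. Muscle genes went from 0.66 to 0.11, oxidative phosphorylation genes from 0.47 to 0.16 and glycolysis genes from 0.09 to -0.17, with 0 calls in each. The covariate is the mean of the muscle list itself, so the small slope of that list was built into the fit and is not a result. Mitochondrially encoded genes had a median of 0.64 in place of 0.78, also with 0 calls. Within the muscle list, slow-fibre genes had a median of 0.74 and fast-fibre genes one of -0.57. Both sets are part of the covariate, so medians on either side of 0 were in part built into the fit and are not a result.

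**Figure D5:**
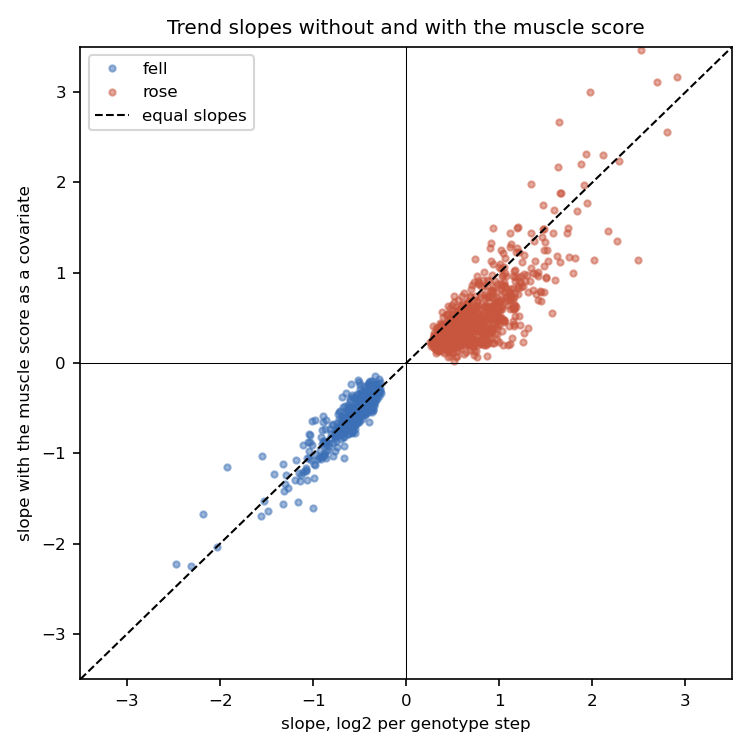
Slope per genotype step (log2) of the called genes without (horizontal axis) and with (vertical axis) the muscle score as a covariate. Points are genes, the dashed diagonal marks equal slopes and 2 of the called genes lie outside the axes; the median of risen genes went from 0.67 to 0.41, and that of fallen genes was -0.51 in both fits.

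The omission of single libraries left a core of risen and fallen genes. Every one of the 1257 genes kept its sign whichever library was left out, which their choice by slope over all 10 libraries largely fixed in advance. Of them, 413 were called in every omission, 254 risen (32.2% of risen genes) and 159 fallen (34%). When a call with the muscle covariate was required as well, 34 genes remained, 32 fallen and 2 risen. Of these 32 fallen genes, 15 belong to a tendon or matrix list, beside 48 of all 468 fallen genes. Among the 15 are Mkx, Col1a1, Col1a2, Col16a1, Col11a2, Fmod, Kera, Sparc, Crtap and Pcolce. The lists were chosen with earlier results of these data known. Of the 34 genes, the 2 that rose were Aspa and Ankrd1.

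Aspa, aspartoacylase, which cleaves N-acetylaspartate, had 8.95, 5.34, 6.76 and 6.11 CPM, then 11.9, 10.6 and 12.8 CPM, then 17.6, 25.4 and 22.3 CPM. It was in full order and rose by 0.84 per step (SE 0.112, edgeR adjusted p = 0.00148), and by 1.01 with the covariate (0.0217). Ankrd1, a stress-responsive ankyrin repeat gene of muscle and other mechanically loaded cells, was picked out after its values were seen. It had 12.5, 12.3, 5.51 and 11.7 CPM, then 19.1, 12.1 and 39 CPM, then 44.7, 53.2 and 50.6 CPM, and rose by 1.13 (SE 0.171, edgeR adjusted p = 0.00256), or by 1.32 with the covariate (0.0417). The smallest p-value of the trend belonged to Pla2g5, a secreted phospholipase A2 (chr4:138799244-138863482, minus strand, mm10). It had 77.8, 74.2, 79.5 and 81 CPM, then 35.2, 45.7 and 35.2 CPM, then 18.5, 17.4 and 25.4 CPM, in full order, and fell by 0.97 per step (SE 0.087, edgeR adjusted p = 0.000135).

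Among genes risen in full order, Extl1, an exostosin-like glycosyltransferase, had 1.27, 2.39, 1.42 and 4.08 CPM, then 6.29, 5.73 and 4.63 CPM, then 25.6, 18.2 and 11.2 CPM. It rose by 1.52 per step (SE 0.186, edgeR adjusted p = 0.00133), and by 1.13 with the muscle covariate (0.0693). Kitl, the ligand of the receptor Kit, rose by 0.75, from 15.6 to 23.3 CPM at score 0 through 29.9 to 39.4 CPM to 42.7 to 68.3 CPM at score 2. Chodl, a C-type lectin-like membrane protein, rose by 1.20, Mapt, the microtubule-associated protein tau, by 1.24, Mfn2, a mitochondrial fusion protein, by 0.53, and Zfp641, a zinc finger gene, by 1.06.

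Among genes whose average log2 CPM reached 1 and whose genotype means were in order, predicted gene models left aside, the largest rises were Sorcs1, a sorting receptor, at 2.69 per step, Ces5a, a carboxylesterase, at 2.17, Fam81a at 1.88 and Bdh1, a ketone body dehydrogenase, at 1.83. Sorcs1 was near the counting limit at score 0, with 0.292, 0, 0.114 and 0.719 CPM, then had 2.22, 0.946 and 0.673 CPM, then 1.09, 7.22 and 21.8 CPM. Its highest levels were in Mkx-CreER/flox libraries 4 and 5. The calls of Ces5a and Bdh1 were each lost when any of several libraries was left out, and 13.7% of the exonic length of Bdh1 lies opposite another gene. By the same rule the largest falls were Klk1b21, a kallikrein-related peptidase, at -2.31, Il31ra, the interleukin-31 receptor subunit, at -1.56, Cnmd, chondromodulin, at -1.53 and Gpha2, a glycoprotein hormone subunit, at -1.48. Klk1b21 had 6.13, 7.27, 10.2 and 7.91 CPM, then 2.89, 1.68 and 0 CPM, then 0.0905, 0.687 and 0.0739 CPM. It belongs to a family of near-identical copies, so its counts are uncertain. The progesterone receptor gene Pgr fell by 1.32.

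Vessel and nerve markers rose in part. Beside 4.93% risen and 2.92% fallen over all tested genes, endothelial genes rose in 4 of 20 cases and fell in 0. Their median slope was 0.20. Flt1, a receptor for vascular endothelial growth factor, had 38.1, 31.2, 40.7 and 47.1 CPM, then 61.2, 51.1 and 55.2 CPM, then 81.4, 73.2 and 69.3 CPM, in full order, and rose by 0.46 (SE 0.081, edgeR adjusted p = 0.00514). Kdr, the second receptor of this kind, rose by 0.44 in full order. Tek, the angiopoietin receptor, and Cdh5, VE-cadherin, rose by 0.33 and 0.28, calls that were each lost when any of several libraries was left out. Mural and smooth muscle genes rose in 3 of 16 cases and fell in 1, at 0.32. Rgs5, a pericyte marker, had 183, 138, 134 and 205 CPM, then 279, 202 and 262 CPM, then 654, 407 and 390 CPM, and rose by 0.77 (SE 0.110, edgeR adjusted p = 0.00174). Des, desmin, and Abcc9 were the other risen members, at 0.84 and 0.68. With the muscle covariate their slopes were 0.40 and 0.24, against 0.63 for Rgs5. The part of muscle RNA in these genes was not tested. Ndufa4l2, a mitochondrial protein on the mural list, fell by 0.75. With the muscle covariate 0 endothelial and 0 mural genes rose, in a fit that called 6 risen genes over all tested genes. The median slope went from 0.20 to 0.19 for endothelial genes and from 0.32 to 0.40 for mural genes. Without any 1 of Mkx-flox/+ libraries 1 and 2, Mkx-CreER/+ libraries 1 and 4 or Mkx-CreER/flox library 4, 2 endothelial genes rose.

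Schwann cell and nerve genes rose in 6 of 20 cases, beside 4.93% of all tested genes. The median slope of the list was 1.01, and 1.04 with the muscle covariate. Cdh19, a cadherin of Schwann cells, had 2.14, 2.04, 2.27 and 2.76 CPM, then 3.25, 1.89 and 3.99 CPM, then 5.43, 15.7 and 31.3 CPM, and rose by 1.47 (SE 0.256, edgeR adjusted p = 0.00589). Cryab was another risen member, with slopes of 0.83 to 1.16 per step when single libraries were left out. Transcripts of the nerve list, Cryab among them, summed to 886 to 1602 CPM, 1150 to 1785 CPM and 2616 to 3796 CPM from score 0 to 2. The mean log2 CPM over the list, in which each gene weighs the same, was 2.60 in Mkx-CreER/flox library 1 and 4.74 and 5.49 in libraries 4 and 5, beside 2.18 to 3.49 at score 0 and 2.67 to 3.91 at score 1. By that measure library 1 lay within the range of score 0, and the higher levels were those of libraries 4 and 5. Library 1 also had the highest muscle share of counts, 13.6%, and the part of muscle RNA in the sums was not tested. The count of risen genes was 3 without Mkx-flox/+ library 1, 3 without Mkx-CreER/flox library 4 and 3 without Mkx-CreER/flox library 5, and 0 with the muscle covariate.

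Of 24 macrophage genes tested, 6 fell, beside 2.92% of all tested genes. All 24 tested slopes were negative, at a median of -0.60, and the called genes were Csf1r, Ms4a7, Cd14, Cd68, Fcgr3 and Vsig4. Csf1r, the receptor on which macrophages depend, had 228, 266, 349 and 306 CPM, then 253, 322 and 159 CPM, then 66, 103 and 139 CPM. The score 2 libraries lay below all others while scores 0 and 1 overlapped, and the slope was -0.71 (SE 0.162, edgeR adjusted p = 0.0163), or 0.0608 without Mkx-CreER/flox library 4; 15.1% of its exonic length lies opposite another gene. Macrophage transcripts summed to 2099 to 3450 CPM, 1473 to 3381 CPM and 1056 to 1188 CPM from score 0 to 2.

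The score 1 libraries were divided, with a mean log2 CPM over the list of 5.68, 5.87 and 4.72, beside 5.24 to 5.98 at score 0 and 4.28 to 4.41 at score 2. The mean of the middle genotype lay above the midpoint in 22 of the 24 macrophage genes, by a median of 0.51 on the log2 scale, against -0.02 over all tested genes, of which 45.4% lay above. Of the 24, 13 had an unadjusted edgeR p under 0.05, beside 377 of all 16017 tested genes, and none passed adjustment (smallest adjusted p over all genes = 1). The 24 genes were read in the same 3 score 1 libraries, so their departures are not separate observations. Of the named genes, the smallest departure p belonged to H2-Eb1, a class II antigen-presenting chain outside the list, with 46.2, 49.6, 80.2 and 52.7 CPM, then 79.7, 101 and 56.6 CPM, then 27.4, 40.2 and 31.4 CPM. Its middle genotype lay 0.86 above the midpoint (edgeR quasi-likelihood adjusted p = 1, unadjusted 0.000888), and its slope was -0.34 (edgeR adjusted p = 0.326).

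Counts of fallen macrophage genes depended on single libraries and on the spacing of the scores. The count was 0 without Mkx-CreER/flox library 4, 1 without Mkx-flox/+ library 3 and 3 without Mkx-CreER/flox library 5, and 10, 11 and 16 without Mkx-CreER/+ library 1, Mkx-flox/+ library 2 and Mkx-CreER/+ library 2. With scores of 0, 1 and 3 it was 16, and with scores of 0, 2 and 3 it was 0. With the muscle covariate it was 0, at a median slope of -0.74.

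Other cell types moved in few genes. Among lymphocyte, neutrophil and mast cell genes 1 of 11 fell (Csf3r), among adipocyte genes (17 tested) and epidermal genes (6 tested) there were 0 calls, and of 7 erythroid genes 1 rose. Paratenon and sheath fibroblast genes rose in 1 (Tek) and fell in 1 of 20 cases, at a median slope of -0.17. The fallen member, Igfbp6, a binding protein of insulin-like growth factors, fell by 0.73 in full order. Beside 4.93% risen and 2.92% fallen over all tested genes, these counts of 1 gene were not read as results about a list. Whether the muscle, nerve, vessel and macrophage contents of the samples bear on the tendon values was not tested beyond the muscle covariate.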

How the data were processed

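The authors deposited raw counts of reads per Ensembl gene for 32285 genes in 10 libraries, which is the unit of every value used here. Per the submitters' processing notes, fastp, STAR and the build mm10 were used; their versions, the counter, its use of strand and its handling of multiply mapped reads were not stated. Symbols (for 32235 genes) came from a gene name table and positions from GENCODE vM21 on mm10, matched by Ensembl identifier. Promoters came from RefSeq on GRCm38.p6, matched by symbol.

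In R 4.3.3, genes were kept by filterByExpr by genotype (16017 genes), scaled by TMM, and fitted in edgeR 4.0.16 with 1 quasi-likelihood model with robust dispersion and the genotype score (0, 1 or 2) as its term. A slope is the log2 change per genotype step, and its SE is the slope divided by the root of F. Adding a term for the middle genotype gave the departure test. A gene was called where p, adjusted by Benjamini-Hochberg over all tested genes, was under 0.05. CPM values are TMM-normalized. The scripts were tested on simulated data.

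The members and the 26 gene lists were chosen with earlier results of these data known. Named genes are Mkx, the 12 largest rises and 12 largest falls (average log2 CPM of at least 1 and means in order), the 8 risen and 8 fallen genes in full order with the smallest p, the 3 of smallest departure p, and up to 4 called genes per list (2 of smallest p where none was called), of which those informative for a role are printed. No predicted gene model, Y-linked gene or Xist was named. Other genes named were picked out after their values were seen. Some genes that the rule selects are not reported here. Columns gave the genotype in their names; the Mkx-CreER/+ and Mkx-CreER/flox columns were matched by genotype only. Alternatives were RLE and upper-quartile scaling, DESeq2 1.42.0, voom in limma 3.58.1, other filters, other score spacings, removal of mitochondrial, muscle and erythroid genes, a muscle score as covariate (prior count of 2) and leaving out each library.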

Additional observations from a re-analysis of the deposited data

Results flagged for a closer look

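Of 105 sets of values checked for a library far from the others, 1 stood out, and chance gives about 1 in 20. The check needs at least 4 libraries, so all 105 sets were of Mkx-flox/+. Libraries of Mkx-CreER/+ and Mkx-CreER/flox, with 3 each, were not screened. Trim72, a membrane repair gene of striated muscle that rose by 1.48 per step in full order, had 3.96 CPM in Mkx-flox/+ library 4 against 1.46 to 1.82 CPM in the other Mkx-flox/+ libraries. Its counts are uncertain, since 27.6% of its exonic length lies opposite another gene and the use of strand in counting is not stated. The gap to the nearest library was 0.857 of the genotype's range. The same library had the highest muscle share of its genotype, 5.84%, and the part of that share in the value was not tested.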

How the results depend on the processing

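The count of genes called by the trend moved with the muscle score as a covariate, to 41 (6 risen, 35 fallen), with DESeq2, to 1927 (805 fallen), and with voom, to 2555 (1342 risen, 1213 fallen). Leaving out 1 library gave 655 to 1522 called genes, 418 to 915 risen and 187 to 607 fallen. Counts moved by over 1.5 times without Mkx-flox/+ library 1 (706), Mkx-flox/+ library 2 (831), Mkx-flox/+ library 3 (804), Mkx-CreER/flox library 1 (757) and Mkx-CreER/flox library 4 (655). The cause of these moves was not tested. The Mkx slope, both shares of counts and the departure count of 0 kept their side of the threshold under every alternative run for them. DESeq2 called 1247 of the 1257 genes and voom 1227, whereas scores of 0, 2 and 3 called 848 and scores of 0, 1 and 3 called 1180. Among the named genes, 1806 slopes under alternatives kept their side of the threshold, 216 lost their call, 8 gained one and 0 reversed. The median slope of all tested genes stayed within -0.02 and 0.02 on the log2 scale. No paired analysis was possible because the Mkx-CreER/+ and Mkx-CreER/flox columns do not carry the replicate numbers of the labels. Low genes are limited by depth: 3 counts are worth up to 0.36 CPM.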
